A study of Mus musculus with 3 samples.

Results

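The 9 genes described here carry glucose into cells and along glycolysis, and were taken by name, with no threshold on a measured value. They are the glucose transporters Slc2a1 and Slc2a2, the hexokinases Hk1 and Hk2, the phosphofructokinase subunit Pfkl and the activator-making enzyme Pfkfb3, the pyruvate kinases Pklr and Pkm, and the lactate dehydrogenase subunit Ldha. All probes that match a RefSeq entry of these genes were taken, which gave 13 of the 55681 probes on the arrays and 9 of 20284 genes with a named probe. The data came from 3 one-colour arrays, 1 each of mouse liver given human wild-type YAP (WT) or the mutants YAP (1SA) and YAP (2SA), all collected at 2 days. YAP is a transcription coactivator restrained by the Hippo kinases, and the study describes the mutants as active forms. Per the labels the mice were of strain c57BL6/J, and per the methods males of 8 weeks were mainly used and received plasmid by hydrodynamic tail vein injection. Expression was driven by an AFP enhancer with a minimal albumin promoter, which restricts it to hepatocytes, and only a part of the hepatocytes takes up plasmid. All 3 livers thus had the injection and human YAP, and no liver without them was compared here. The sources do not say if the RNA on an array was pooled over animals.

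Intensities are those deposited for each array. Differences are log2 differences after each array was divided by its own 75th percentile, which was 290.8 on the WT array, 275.7 on the YAP (1SA) array and 319.5 on the YAP (2SA) array. There was 1 array per group, so no test was run, no p-value is given, and a difference between YAP forms cannot be told apart from a difference between livers. The only repeat measurement was of probes printed as 10 spots on an array. It gave for each probe a limit of 2 SD of a difference, from the repeated probes nearest in signal, and this limit covers error between spots only. Only 17 repeated probes were dimmer than Hk2. Limits of dim probes thus drew in part on brighter ones, levelled off at 0.44 and may be too small. The number of arrays limits the precision. Each of the 13 member probes passed the detection filter on every array, and no spot was saturated.

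Glycolysis splits glucose into pyruvate, and its flow is set mainly by uptake, by the hexokinases, by phosphofructokinase and by pyruvate kinase. The liver uses its own forms at these steps: among them the transporter GLUT2 (Slc2a2) and the L-type pyruvate kinase (Pklr), which serve an organ that both takes up and releases glucose. The transporter GLUT1 (Slc2a1), Hk1, Hk2 and Pkm are the common forms of other tissues and growing cells. In bulk liver RNA, fewer cells of a type and less RNA per cell cannot be told apart.

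Promoters of 4 members are shown as examples, with Pfkfb3 and Pklr higher and Pkm and Ldha lower on the YAP (1SA) array than on the WT array. These are not the 4 largest differences, as Hk2 (-0.53) and Slc2a1 (0.40) differed by more than Ldha (-0.25). The sequences are RefSeq windows of 300 bases around a transcription start (GRCm38.p6), written along the gene's strand. All 9 members had such a window, and there were 14 in all. Capitals mark CACGTG, the core of a carbohydrate response element, and ACGTG and GCGTG, cores of hypoxia response elements, on either strand (ACGTG reads CACGT and GCGTG reads CACGC when reversed). ACGTG also lies inside CACGTG. The Pklr window held no exact match, and imperfect copies of these cores were not searched for or marked. Each of the 4 genes had another window that is not shown, and none of those held CACGTG. The other Pfkfb3 window held 1 ACGTG and the other Ldha window 2 GCGTG. The other Pkm and Pklr windows held none of the marked cores.
Pfkfb3, chr2:11502041-11502340, minus strand: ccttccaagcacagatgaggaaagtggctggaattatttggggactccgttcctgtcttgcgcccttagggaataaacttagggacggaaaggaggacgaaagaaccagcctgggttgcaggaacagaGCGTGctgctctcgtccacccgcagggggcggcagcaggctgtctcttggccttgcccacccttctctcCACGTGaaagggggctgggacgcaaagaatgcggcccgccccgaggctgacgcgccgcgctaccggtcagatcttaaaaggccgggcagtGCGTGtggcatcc
Pklr, chr3:89136373-89136672, plus strand: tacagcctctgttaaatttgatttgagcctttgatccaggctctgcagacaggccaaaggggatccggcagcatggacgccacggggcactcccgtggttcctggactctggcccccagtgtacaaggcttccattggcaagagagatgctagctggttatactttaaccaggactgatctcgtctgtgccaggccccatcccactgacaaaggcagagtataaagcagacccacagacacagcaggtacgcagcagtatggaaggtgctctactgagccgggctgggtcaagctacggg
Pkm, chr9:59656977-59657276, plus strand: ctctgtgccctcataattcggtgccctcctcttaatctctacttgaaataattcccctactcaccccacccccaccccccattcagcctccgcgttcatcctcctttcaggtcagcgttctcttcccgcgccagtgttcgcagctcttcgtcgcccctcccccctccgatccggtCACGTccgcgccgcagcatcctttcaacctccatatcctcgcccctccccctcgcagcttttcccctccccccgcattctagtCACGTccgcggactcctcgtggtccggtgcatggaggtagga
Ldha, chr7:46845554-46845853, plus strand: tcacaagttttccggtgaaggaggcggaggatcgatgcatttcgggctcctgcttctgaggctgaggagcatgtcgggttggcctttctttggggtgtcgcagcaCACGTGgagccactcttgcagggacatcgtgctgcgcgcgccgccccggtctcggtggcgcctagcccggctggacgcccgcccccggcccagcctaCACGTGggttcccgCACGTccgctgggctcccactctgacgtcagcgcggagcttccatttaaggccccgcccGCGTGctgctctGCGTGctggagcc
The Pfkfb3 window held 1 CACGTG and the Ldha window 2, and these were the only members with that exact core in any window. The motif was present in 7.15% of all 32851 promoter windows. ACGTG was found in 7 of the 14 windows of the members, from 6 genes, against 19.6% of all windows, and GCGTG in 6 windows, from 5 genes, against 32.4%. GGAATG, the core bound by the TEAD partners of YAP, was in none of the 14 windows and in 14.7% of all windows. A match is a description of the letters, and its absence says only that the letters are not in the window.

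None of the 13 probes differed by 2-fold in any comparison. Over the whole array 1.72% of 28032 probes measured on both arrays differed by at least 2-fold in YAP (1SA) against WT, 1.65% of 28290 in YAP (2SA) against WT, and 3.16% of 28851 in YAP (2SA) against YAP (1SA). The largest member difference was 1.75-fold, for Pfkfb3 between the mutants. Taking the brightest probe of each gene, the differences ran from -0.53 to 0.60 in YAP (1SA) against WT, with a median of -0.05, and 3 genes lay above and 3 below WT past the limit of repeated spots. In YAP (2SA) against WT they ran from -0.22 to 0.26, with a median of 0.02, and 2 genes lay above and 3 below past the limit. Between the mutants, as YAP (2SA) minus YAP (1SA), they ran from -0.81 to 0.70, with a median of 0.06, and 2 genes lay above and 3 below. Over 13626 named genes measured on all 3 arrays, 32.3% passed their limit in YAP (1SA) against WT (15.3% higher, 16.9% lower), 32.2% in YAP (2SA) against WT (14.1% higher, 18.0% lower) and 42.4% between the mutants (19.2% higher, 23.2% lower). The medians of all genes were 0.00, -0.03 and -0.03. Both comparisons with WT share the WT array.

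**Figure D1:**
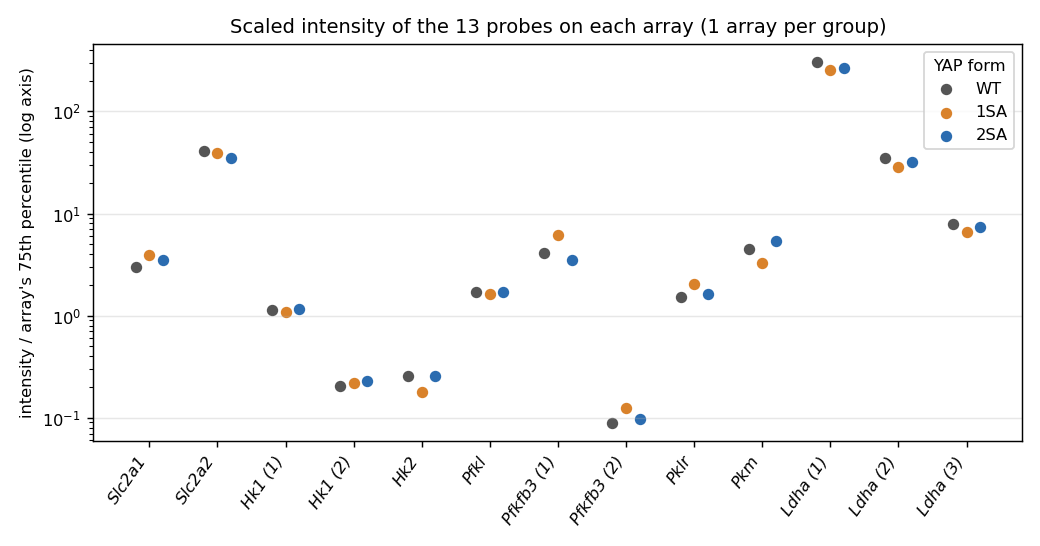
Deposited intensity divided by the array's 75th percentile (log axis) for the 13 probes, with 1 point for each of the WT, YAP (1SA) and YAP (2SA) arrays; numbers in brackets are probes of 1 gene from bright to dim. The 3 points of a probe lie close together, and the largest gap is the 1.75-fold one of the brighter Pfkfb3 probe between the mutants. Heights of different probes are not comparable as levels of mRNA.

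The transporters stood apart from each other in both mutants, each set against the same WT array. Slc2a1 (NM_011400) encodes GLUT1, the high-affinity transporter of most tissues, and it read 873.9 on the WT array, 1093 on YAP (1SA) and 1121 on YAP (2SA). It was higher than WT by 0.40 in YAP (1SA) and by 0.22 in YAP (2SA). The limit was 0.21, so the YAP (2SA) value lay only just past it. With normexp, for which no limit was computed, the YAP (2SA) value was 0.12. Slc2a2 (NM_031197) encodes GLUT2, the low-affinity transporter by which hepatocytes exchange glucose with blood. Its intensity was 11904, 10904 and 11262 on WT, YAP (1SA) and YAP (2SA). Its difference from WT was -0.05 in YAP (1SA), within its limit of 0.15, and -0.22 in YAP (2SA), past it. Set against Slc2a2, Slc2a1 was therefore 0.45 higher in YAP (1SA) and 0.44 higher in YAP (2SA), relative to WT, where the limit of such a contrast was 0.26. With normexp the YAP (2SA) contrast was 0.30. Both contrasts share the WT array and are not independent, and between the mutants the contrast was -0.01. Red cell markers differed in both directions. Of 7 listed genes 5 were measured. Past the limit 2 lay above and 1 below WT in YAP (1SA), and 1 above and 1 below in YAP (2SA), with medians of 0.38 and 0.09. Over all genes 15.3% lay above and 16.9% below in YAP (1SA), and 14.1% and 18.0% in YAP (2SA). The summed scaled level of the red cell markers was 56.4 on WT, 92.5 on YAP (1SA) and 69.7 on YAP (2SA). It came mostly from Hba-a1 and Alas2. In YAP (2SA) the haemoglobin gene Hba-a1, at 0.45, was the higher marker, and Epor, at -0.31, the lower. The part of these cells in the Slc2a1 values was not tested.

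The hexokinases phosphorylate glucose and hold it in the cell. Hk1 (NM_001146100), the form found in most tissues, had a brighter probe at 327.3, 299.4 and 371.5 on WT, YAP (1SA) and YAP (2SA). A dimmer probe read 60.0, 60.9 and 73.0. Neither probe passed its limit in any comparison, and the differences lay between -0.05 and 0.15. Hk2 (NM_013820), the inducible form of muscle, fat and tumours, read 75.3 on WT, 49.4 on YAP (1SA) and 82.8 on YAP (2SA). The YAP (1SA) array was thus the low one, by -0.53 against WT and with YAP (2SA) 0.53 above it, while YAP (2SA) and WT differed by 0.00. The Hk2 limit was 0.36. Set against Hk2, Hk1 was 0.48 higher in YAP (1SA) relative to WT, with a limit of 0.42, and 0.05 higher in YAP (2SA). Of all probes measured on all 3 arrays, 8.9% differed by as much as Hk2 alone did in YAP (1SA) against WT. Hk2 is dim. With normexp background correction and an offset of 50 its difference was -0.25 in YAP (1SA) against WT and 0.26 between the mutants. The contrast of Hk1 against Hk2 in YAP (1SA) was then 0.19. The limits were set on values without that offset and none was computed with it. Whether these values pass a limit was not tested.

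At the phosphofructokinase step, the member Pfkl was level and Pfkfb3 was not. Outside the members, the subunit gene Pfkm differed from WT by 0.20 in YAP (1SA) and by -0.16 in YAP (2SA). Between the mutants it gave -0.36, and all these values were past its limit of 0.065. The limit falls with the number of spots of a probe. The value of -0.16 is smaller than the limit of 0.19 of the single-spot Pfkl probe. The brighter Pfkp probe gave 0.40 between the mutants, past its limit of 0.38, and the dimmer 0.35, within 0.44. Pfkl (NM_008826), the liver subunit of phosphofructokinase, read 492.5, 446.5 and 548.8 on WT, YAP (1SA) and YAP (2SA), and its differences of -0.06, 0.02 and 0.09 (the last between the mutants) lay within the limit of 0.19. Pfkfb3 makes fructose 2,6-bisphosphate, the strongest activator of phosphofructokinase. Its brighter probe (NM_001177753) read 1183 on WT, 1706 on YAP (1SA) and 1130 on YAP (2SA). YAP (1SA) was the high array, by 0.60 against WT, and YAP (2SA) differed from it by -0.81, with a limit of 0.20. Of all probes measured on all 3 arrays, 6.8% differed by as much in the first of these comparisons and 5.3% in the other. The dimmer probe (NM_133232) read 25.9, 34.3 and 30.8, again highest on YAP (1SA), by 0.48 against WT with a limit of 0.44, but it gave -0.37 between the mutants, within that limit. The mean of both probes gave -0.59 between the mutants. The probes disagreed in YAP (2SA) against WT, where the brighter gave -0.20, at its limit, and the dimmer 0.12, within its own. The named genes whose pair of differences from WT lay nearest to that of Pfkfb3, by Euclidean distance over these 2 values from 3 arrays, were Orm3 (distance 0.024), Fras1 (0.034) and Dpyd (0.045). Orm3 encodes an acute phase plasma protein, Fras1 an extracellular matrix protein and Dpyd an enzyme of pyrimidine breakdown. In YAP (1SA) they differed from WT by 0.58, 0.57 and 0.57, and in YAP (2SA) by -0.21, -0.21 and -0.17.

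The pyruvate kinases, which make pyruvate and ATP at the last step, differed from WT in opposite directions on the YAP (1SA) array. Pklr (NM_013631), the form of liver and red cells, read 438.6 on WT, 563.2 on YAP (1SA) and 520.6 on YAP (2SA), and was 0.44 higher than WT in YAP (1SA) and 0.11 higher in YAP (2SA). Its limit was 0.19, so of these the YAP (1SA) value alone was past it. With normexp, for which no limit was computed, the YAP (2SA) value was 0.23. Pkm (NM_011099), the form of other adult tissues, fetal liver and tumours, read 1303, 909.5 and 1713. It was lowest on YAP (1SA), at -0.44 against WT, and highest on YAP (2SA), at 0.26, both past the limit of 0.20. Between the mutants, as YAP (2SA) minus YAP (1SA), Pkm gave 0.70 and Pklr -0.33. The contrast of Pklr against Pkm was 0.88 in YAP (1SA) against WT, -0.15 in YAP (2SA) against WT and -1.03 between the mutants, with a limit of 0.27. The Pkm probe sequence was not given, so the splice form it reads (M1 or M2) is not known here.

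**Figure D2:**
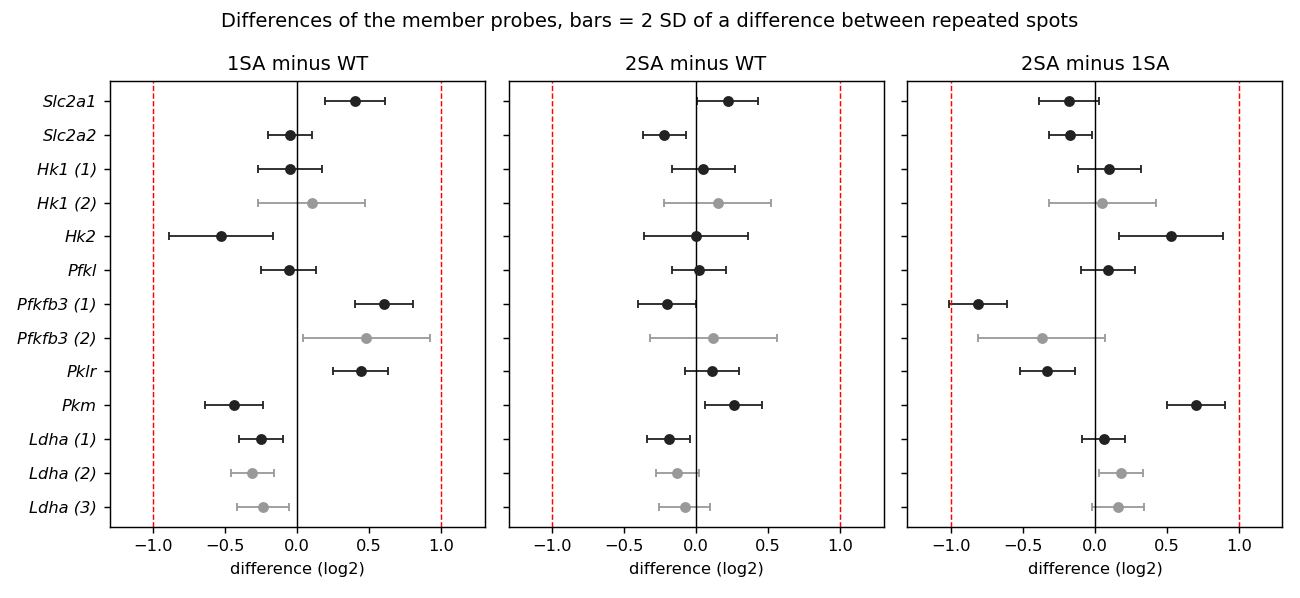
Log2 differences of the 13 member probes in YAP (1SA) minus WT, YAP (2SA) minus WT and YAP (2SA) minus YAP (1SA), with the brightest probe of a gene in black and others in grey. Bars span 2 SD of a difference between repeated spots and dashed lines mark 2-fold. Pfkfb3 (0.60) and Hk2 (-0.53) are the extremes in YAP (1SA) against WT, and no point reaches a dashed line.

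Ldha (NM_001136069) encodes the subunit of lactate dehydrogenase that predominates in liver and muscle and turns pyruvate into lactate. Its 3 probes read 88554, 10212 and 2281 on WT, 70718, 7821 and 1833 on YAP (1SA), and 85360, 10231 and 2376 on YAP (2SA). All 3 probes were lower in YAP (1SA) than in WT, with differences of -0.25, -0.31 and -0.24 and limits from 0.15 to 0.18. In YAP (2SA) the differences from WT were -0.19, -0.13 and -0.08, and the first alone was past its limit. Probes to genes with near-identical copies, such as Ldha and Gapdh, may also read their pseudogenes.

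Bile duct markers were low on the YAP (1SA) array, where Pkm and Hk2 were low, and both genes are also used by cells other than hepatocytes. All 5 bile duct markers were lower in YAP (1SA) than in WT past their limit, with a median of -0.82. Krt7 and Epcam were dim, at 30.7 and 32.4 on WT. Sox9, at -0.29, passed a limit of 0.11, where that of the brighter Krt19 was 0.30. The summed scaled level of the 5 was 13.1 on WT, 4.30 on YAP (1SA) and 10.8 on YAP (2SA). Spp1, a secreted matrix protein listed as a bile duct marker, differed most, by -1.73. It made most of these sums, at intensities of 3536 on WT, 1009 on YAP (1SA) and 3132 on YAP (2SA). In YAP (2SA) 1 bile duct marker was higher and 1 lower than WT past the limit, with a median of -0.06. Of the 6 Kupffer cell markers, 4 were lower and 1 higher in YAP (1SA) past the limit, and 5 were lower in YAP (2SA). Their summed level was 199 on WT, 143 on YAP (1SA) and 98.5 on YAP (2SA). It came mostly from Cd5l and Marco, and was lowest on YAP (2SA), where Pkm was highest. Of the 5 stellate cell markers measured, 3 were lower in YAP (1SA) and 5 in YAP (2SA), with medians of -0.18 and -0.60. Their summed levels of 13.2, 8.42 and 8.60 came mostly from Col1a1 and Acta2. Of the 5 monocyte and neutrophil markers measured, 1 was higher in YAP (1SA), the chemokine receptor Ccr2, by 2.33, and 1 was lower. In YAP (2SA) 2 were higher, Ccr2 by 0.85 and S100a8 by 0.44, and 1 was lower. Their summed levels of 141, 137 and 140 came mostly from Csf3r, which read 36349 on WT and differed by -0.05 and 0.00. The 6 sinusoidal endothelial markers had medians of 0.00 and -0.03 in YAP (1SA) and YAP (2SA) against WT and summed levels of 76.0, 80.6 and 63.5, and the 4 lymphocyte markers measured had medians of 0.06 and -0.02 and summed levels of 9.11, 9.07 and 8.83. All 8 hepatocyte markers were well above background on every array, with medians of 0.09 and -0.14, and summed levels of 4001, 4301 and 3515. Of 4 skeletal muscle markers only Acta1 was measured, with differences of -0.97 and -0.42. Of 6 cell cycle markers, 5 were higher and 1 lower in YAP (1SA), and 6 were higher in YAP (2SA), with medians of 0.75 and 0.53. For these counts, the shares of all genes past the limit were 15.3% higher and 16.9% lower in YAP (1SA), and 14.1% and 18.0% in YAP (2SA). The part of any of these cells or of cell division in the member values was not tested.

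The other 76 genes of the pathway and its control came from lists of transporters, enzymes, regulators and responsive genes. Of these 71 were measured on all 3 arrays. At 2-fold, 2 were higher and 0 lower in YAP (1SA) than in WT, 1 higher and 0 lower in YAP (2SA) than in WT, and 3 higher and 0 lower in YAP (2SA) than in YAP (1SA). The shares over all 13626 genes were 0.727% higher and 1.14% lower, 1.12% and 0.543%, and 2.47% and 1.12%. The medians of the 71 genes were 0.02, -0.03 and -0.12.

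**Figure D3:**
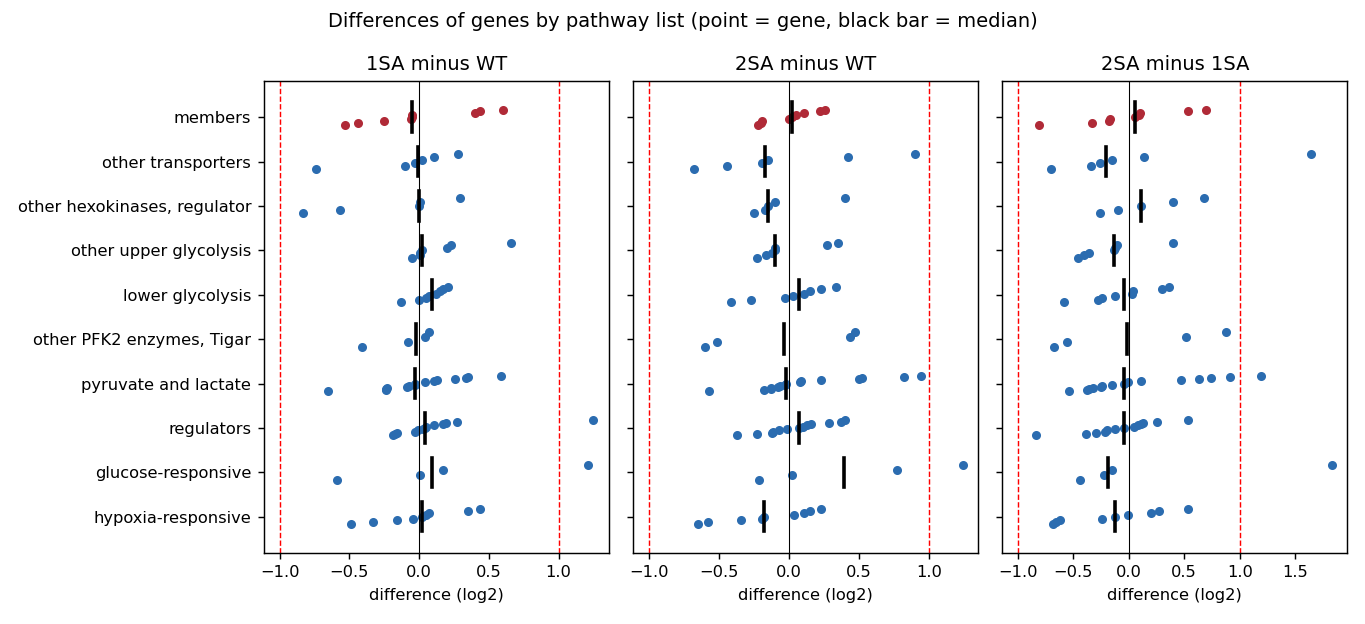
Log2 differences of the 9 members (red) and of the measured genes of 9 other lists (blue), with 1 point per gene, a black bar at the median of each list, and dashed lines at 2-fold. The medians of the enzyme lists lie near 0 with genes on both sides, and the points past a dashed line are Myc (1.25) and Thrsp (1.21) in YAP (1SA) against WT, Txnip (1.24) in YAP (2SA) against WT, and Txnip, Slc2a6 and Pdp1 between the mutants.

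The other enzymes differed in both directions. Among the 24 other enzymes of glycolysis and their control, none differed by 2-fold in any comparison, and their medians were 0.03 in YAP (1SA) and -0.10 in YAP (2SA) against WT. Past the limit of repeated spots, 5 were higher and 3 lower in YAP (1SA) than in WT, and 6 higher and 6 lower in YAP (2SA). Between the mutants 6 were higher and 9 lower in YAP (2SA). Over all genes the shares past it were 15.3% higher and 16.9% lower, 14.1% and 18.0%, and 19.2% and 23.2%, in the same order. Hk3, a hexokinase of myeloid cells, was the lowest gene of these lists in YAP (1SA), at 451.9 on WT, 240.7 on YAP (1SA) and 447.7 on YAP (2SA), a difference of -0.83 in YAP (1SA). Hkdc1, a hexokinase-like gene, differed by -0.57 there. Aldoc, the brain-type aldolase, was the highest of the 24, at 0.66 in YAP (1SA) and 0.27 in YAP (2SA), with a limit of 0.15. Pfkp, the platelet subunit of phosphofructokinase, differed by 0.35 in YAP (2SA), within its limit of 0.38. In the lower part of the pathway 7 of 8 genes lay above 0 in YAP (1SA), of which 1 was past its limit. Over all genes 49.7% lay above 0. Eno3, the muscle enolase, was 0.34 higher in YAP (2SA), and Eno2, the neuronal enolase, gave -0.41 at an intensity of 16.1 on WT, within its limit of 0.44.

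Genes that make or remove fructose 2,6-bisphosphate differed in direction. Beside Pfkfb3, Pfkfb4 differed by -0.41 in YAP (1SA) and by 0.47 in YAP (2SA). Pfkfb1, the liver form, was 0.44 higher in YAP (2SA) and differed by -0.08 in YAP (1SA). Pfkfb2 and Tigar, a phosphatase induced by p53, were lower in YAP (2SA), at -0.60 and -0.51. All 4 were past their limit in YAP (2SA), and 1, Pfkfb4, in YAP (1SA). Over all genes 32.2% were past it in YAP (2SA) and 32.3% in YAP (1SA).

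Genes that handle pyruvate and lactate had medians of -0.03 and -0.02 in YAP (1SA) and YAP (2SA) over 15 genes, with single members far from them. Pdk4, a kinase that closes the entry of pyruvate into the mitochondrial citrate cycle and is raised by fasting, read 108.9, 96.7 and 210.7 on WT, YAP (1SA) and YAP (2SA), and was 0.82 higher in YAP (2SA). Pdp1, the phosphatase that opposes it, was higher too, at 52.4, 42.0 and 110.8, by 0.94 in YAP (2SA) against WT and by 1.19 between the mutants. Its 3 measured probes gave 0.94, 0.80 and 0.87. In YAP (1SA) Pdk4 differed from WT by -0.09, within its limit of 0.28. The Pdp1 probes gave -0.24, -0.69 and -0.35 there, and the -0.69 probe alone was past its limit.

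Among the other transporters 6 of 11 were measured on all arrays. Slc2a6, a transporter of leukocytes, read 80.7, 45.7 and 165.2 on WT, YAP (1SA) and YAP (2SA), which gave -0.74 and 0.90 against WT and 1.64 between the mutants. Slc2a5, the fructose transporter, was lower in YAP (2SA), at -0.68, and differed by 0.02 in YAP (1SA). Slc2a3, the neuronal transporter GLUT3, was not well above background on WT, where it read 15.2. Against that reading it was 1.53-fold higher in YAP (1SA) and 2.01-fold higher in YAP (2SA). These are ratios of dim scaled readings and not lower bounds. Slc5a2 was measured on WT only, at a dim intensity of 16.3, and read 4.79 on YAP (1SA) and 4.81 on YAP (2SA). Against the lowest signal of any probe measured on each mutant array, it was lower by 1.50-fold and 3.01-fold. That lowest signal is not the detection limit of this probe. The gap between the folds came from it and is not a difference between the mutants.

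**Figure D4:**
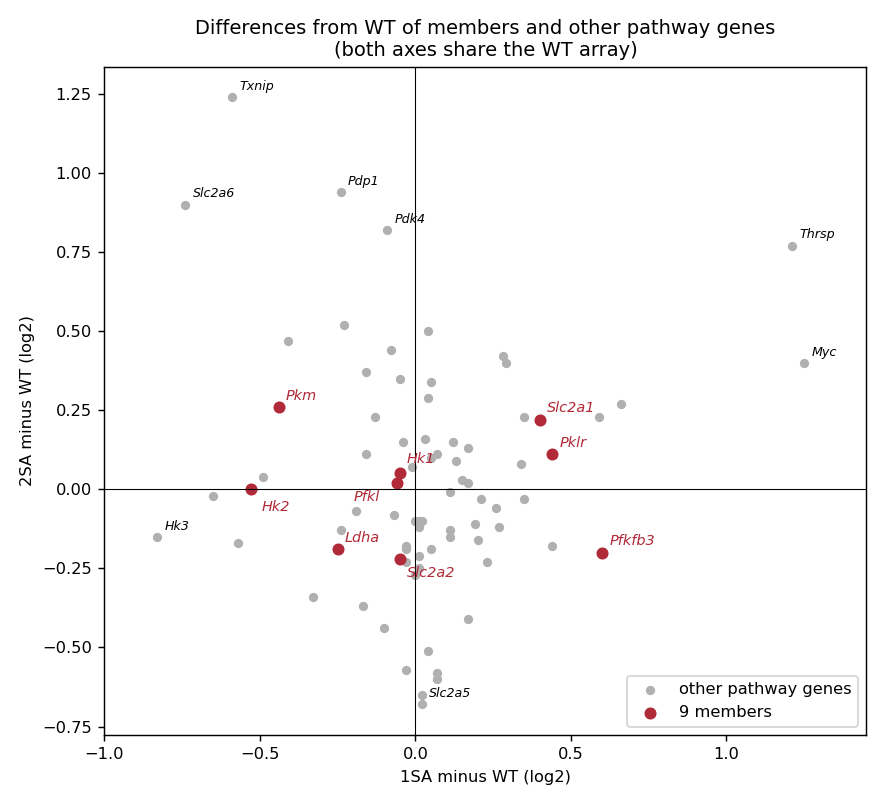
Difference from WT in YAP (1SA) (horizontal) against that in YAP (2SA) (vertical), both log2, for the 9 members (red) and the 71 other pathway genes measured (grey). Pkm lies at -0.44 and 0.26 and Pfkfb3 at 0.60 and -0.20, on opposite sides of both axes, and Txnip, Thrsp and Myc lie farthest out. Both axes use the same WT array.

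Of 4 genes that respond to glucose, Txnip and Thrsp differed by more than 2-fold from WT in 1 mutant each. Txnip, which is induced by glucose through the ChREBP and MondoA factors and holds back glucose uptake, read 1924 on WT, 1213 on YAP (1SA) and 4997 on YAP (2SA). It differed from WT by -0.59 in YAP (1SA) and by 1.24 in YAP (2SA), and its dimmer probe gave -0.47 and 1.26. Between the mutants it was 1.83 higher in YAP (2SA). Arrdc4, its relative and another gene induced by glucose, gave 0.01 and -0.21, within its limit of 0.22, but its dimmer probe gave -0.32 and 0.23, past a limit of 0.11. Khk, the fructokinase, gave 0.17 and 0.02. Thrsp, a lipogenic gene induced by glucose and insulin, was higher in both mutants, at 14668, 32216 and 27511, by 1.21 and 0.77. The factor genes themselves were near level: Mlxipl, which encodes ChREBP, differed by 0.05 and 0.10, Srebf1 by -0.01 and 0.07, and Hif1a by 0.11 and -0.01. Myc, a growth regulator that raises many glycolytic genes, was the exception, at 209.6 on WT, 472.4 on YAP (1SA) and 304.8 on YAP (2SA), or 1.25 and 0.40 above WT. The YAP constructs of the study, wild type and mutants alike, carried a Myc tag, and the sequence of the Myc probe was not given. Irs2, an insulin receptor substrate, was 0.37 higher in YAP (2SA).

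Of 9 genes induced by hypoxia, 1 was higher and 1 lower in YAP (1SA) past the limit, and 0 were higher and 4 lower in YAP (2SA). Over all genes 15.3% were higher and 16.9% lower in YAP (1SA), and 14.1% and 18.0% in YAP (2SA). The medians of the 9 were 0.02 and -0.18. Vegfa, the vascular growth factor, was the higher gene in YAP (1SA), at 0.44, and gave -0.18 in YAP (2SA). Its dimmer probe gave 0.32 and -0.15, the latter within its limit of 0.21. Ankrd37 and Egln3 were lower in YAP (2SA), at -0.65 and -0.58. Of 4 gluconeogenic genes, a list outside the 76, which run the opposite way to glycolysis, Pck1 differed by 0.31 and -0.27 in YAP (1SA) and YAP (2SA), and G6pc by -0.06 and 0.29.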

How the data were processed

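Total RNA of 3 mouse livers was labelled with Cy3 and hybridised to 1 Agilent array each, and the authors extracted the spots with Feature Extraction 10.10.1.1 per the file headers (probes designed on mm9). The deposited intensity is background-subtracted and detrended within an array and is not scaled between arrays. The deposited series matrix holds the same intensity times 1 constant per array (3.02, 3.08 and 2.81 for WT, 1SA and 2SA), whose origin is not given in the sources used here. 

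Control spots and 181, 148 and 182 outlier spots were left out, spots of a probe were averaged as log2 intensity, and each array was set to its own 75th percentile. A probe was measured where at least 50% of its spots were well above background. Probes were named through RefSeq accessions without version (26762 of 55681 matched; GRCm38.p6, names only). A gene took its brightest probe measured on all 3 arrays. The folds of Slc2a3 and Slc5a2 set the brighter scaled value over the dim probe's own or the lowest signal measured on that array, whichever is higher. They are not lower bounds. The limit of repeated spots is 2 SD of a difference, from the 30 nearest in signal of 160 probes with 10 spots, divided by the square root of the number of spots. A probe counted as past its limit on unrounded values.

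The members and lists were chosen with earlier results of these data known. Named were all members, list genes past 2-fold, the 2 largest differences from WT of each list, and the 3 genes nearest to the member with the largest difference. Pfkfb1, Pfkfb4, Slc2a3, Slc5a2, Arrdc4, Khk, Mlxipl, Srebf1, Hif1a, Vegfa, Pfkm, Aldoa and the marker genes were added after their values were seen. Some genes of the lists are counted but not reported here by name. Slc2a12, Ly6c2 and Hbb-b1 had no named probe. Code was tested on simulated data. The 9 alternatives are given in the closing section. Python 3.11.15, numpy 2.4.6, pandas 2.3.3, matplotlib 3.10.9, R 4.3.3 and limma 3.58.1 were used.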

Additional observations from a re-analysis of the deposited data

Results flagged for a closer look

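These genes lay past their limit of repeated spots on opposite sides of WT in the 2 mutants. With 1 array per group the differences between the mutants were not tested, and spot error is the only error covered. Among the members, Pkm was 0.70 higher in YAP (2SA) than in YAP (1SA), and Pfkfb3 gave -0.81, where the YAP (2SA) value of -0.20 against WT was only at the limit of 0.20, came within it under 4 of the 9 alternatives, and the dimmer probe gave 0.12. Among the other pathway genes, YAP (2SA) minus YAP (1SA) was 1.83 for Txnip, 1.64 for Slc2a6, 0.88 for Pfkfb4, -0.36 for Pfkm, -0.46 for Aldoa and -0.62 for Vegfa. The low limit of Pfkm, 0.065, reflects its number of spots. The dimmer Vegfa probe gave -0.15 in YAP (2SA) against WT, within its limit of 0.21.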

How the results depend on the processing

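No paired analysis was possible because there was a single array for every YAP form. For the same reason no array could be left out and no slide block fitted. No member differed by 2-fold in any comparison under any of the 9 alternatives. Quantile normalisation, the array median, the series matrix and keeping outlier spots left the count of genes past 2-fold in each comparison within 1.5 times, and moved the median of all genes by less than 0.1. The 9 members kept the sign of their 27 differences except Hk1 in YAP (1SA) (-0.10 to 0.02) and Hk2 in YAP (2SA) against WT (0.00 to 0.03). Pfkfb3 ran from 0.54 to 0.64 in YAP (1SA) and from -0.20 to -0.04 in YAP (2SA), Pkm from -0.49 to -0.40 and from 0.26 to 0.29, and Hk2 in YAP (1SA) from -0.58 to -0.25. Among these, Pfkfb3 in YAP (2SA) against WT came within its limit of 0.20 with the array median (-0.19), the series matrix (-0.17), normexp (-0.14) and the mean of probes (-0.04). Ldha in YAP (2SA) against WT came within its limit with the mean of probes (-0.13), and between the mutants it passed it with quantile normalisation (0.21). Slc2a2 between the mutants came within its limit with quantile normalisation (-0.07) and the series matrix (-0.09). All these limits were set on the values as first reported, and none was computed under an alternative.

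Normexp, which adds an offset of 50, gave Hk1 against Hk2 0.19 in YAP (1SA) against WT and -0.15 between the mutants, and Slc2a1 against Slc2a2 0.30 in YAP (2SA) against WT. Under it Slc2a1 in YAP (2SA) against WT was 0.12, Hk2 between the mutants 0.26, and Pklr in YAP (2SA) against WT 0.23. These are not set against a limit, as none was computed with the offset. Normexp left 1 other pathway gene 2-fold higher between the mutants, as did the stricter filter on dim probes. Under that filter Hk2 dropped out, and the median of the 8 remaining members between the mutants was -0.05. With no filter 2 other pathway genes were higher and 2 lower in YAP (2SA), and 1 lower in YAP (1SA), than in WT. At 3-fold, 0 were higher in YAP (1SA) or YAP (2SA) than in WT. The mean of all measured probes turned the median of the 4 glucose-induced genes between the mutants from -0.18 to 0.01. Over all genes normexp gave 0.367% higher and 0.352% lower in YAP (1SA) than in WT, against 0.727% and 1.14%. The cause was not tested.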
